A study of Mus musculus with 6 samples.

Results

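The 86 genes described here encode the proteins of the cytosolic ribosome or are close relatives of genes that do. They were chosen by symbol alone from the 54446 genes of the deposited tables, as the numbered Rpl and Rps genes together with Rplp0, Rplp1, Rplp2 and Rpsa, and the rule itself uses no measured value. Of them, 43 encode proteins of the large subunit, 30 encode proteins of the small subunit and 3 encode the P stalk, and these 76 are called the core genes below. The other 10 are paralogues, that is, sequence relatives of a core gene, and 4 of these are annotated as pseudogenes. Genes of the mitochondrial ribosome, the Rps6k kinases and Rps3a1, which encodes a further protein of the small subunit, fell outside the rule. The filter on low counts was passed by 81 genes, which include all 76 core genes, and 78 had a mean normalised count of at least 500. RNA-seq was performed on the livers of 3 WT and 3 Fmo5-/- mice, with 1 library of single reads per mouse. All were C57BL/6J males of 32 weeks of age kept on a standard chow diet, and the Fmo5-/- line had been made on the same background. FMO5 is a flavin-containing monooxygenase that is abundant in liver. The samples are whole liver, so fewer cells of a type and less RNA per cell cannot be told apart.

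Ribosomal proteins and ribosomal RNA make up the ribosome, whose small subunit decodes the mRNA and whose large subunit joins the amino acids. The P stalk on the large subunit recruits and activates the GTPases of translation, and hepatocytes, which secrete most plasma proteins, are rich in ribosomes. In mammals the mRNAs of these proteins begin with a C followed by an unbroken run of pyrimidines, the terminal oligopyrimidine (TOP) tract, through which mTORC1 and LARP1 control their translation as a group. That control acts on translation and need not change the amount of mRNA, which is the quantity measured here.

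The annotated starts of several members show the tract, and these are printed because they are the feature that marks the mRNAs as one translational class. A RefSeq start on GRCm38.p6 was found for 63 of the 86 genes, with 75 starts in all. Each line gives 10 bases before and 20 bases from the annotated start, 5′ to 3′ on the strand of the gene, with the run of C and T that opens the transcript in capitals. The examples are genes whose values are described below.
Rps6, chr4:86857348-86857377, minus strand: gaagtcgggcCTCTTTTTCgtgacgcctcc
Rps10, chr17:27635225-27635254, minus strand: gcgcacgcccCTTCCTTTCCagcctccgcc
Rps21, chr2:180257369-180257398, plus strand: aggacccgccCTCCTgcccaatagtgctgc
Rps27, chr3:90213629-90213658, minus strand: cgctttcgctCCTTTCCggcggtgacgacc
Rpl15, chr14:18270967-18270996, minus strand: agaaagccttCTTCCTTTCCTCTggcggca
Rpl35, chr2:39005112-39005141, minus strand: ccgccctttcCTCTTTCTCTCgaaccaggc
Rpl38, chr11:114668570-114668599, plus strand: aagcctcgttCTTTCCCCgttctcttcggt
Rplp2, chr7:141447641-141447670, plus strand: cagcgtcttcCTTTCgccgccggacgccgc

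Among the 66 starts found for 56 core genes, 13 (19.7%) opened with a C followed by at least 4 bases that are each C or T. The same was true of 823 (2.51%) of the 32851 starts in the RefSeq table. Other short motifs were counted in the 300 bases around each start, from 250 bases before it to 50 bases from it. The run CTCTTTCC, read on the strand of the gene and able to lie within the tract, was in 10 core windows (15.2%), of 8 genes, and in 1.5% of all windows. The letters CCGGAAG, the core of sites bound by ETS factors, were found on either strand in 24 core windows (36.4%) against 8.86% of all. The letters AAGATGGC, part of the site of YY1, were in 7 core windows (10.6%), of 5 genes, against 2.75%. GGGCGG was in 40 (60.6%) against 35.7%, while TATAAA was in 6 (9.09%) against 13.6%. A match describes the letters only, and a window without one says nothing about a factor. The annotated starts were not compared with measured transcript ends, so a start without the run does not show that the mRNA lacks the tract.

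The libraries held between 44886286 and 52338675 counts on genes. Reads with more than 1 place in the genome were not counted, and their share was 11.8% to 13.1% in the WT libraries and 10.4% to 11.5% in the Fmo5-/- libraries, and its part in the results was not tested. Fmo5 had a mean normalised count of 35818 ± 4978 in WT and 1122 ± 63.7 in Fmo5-/- livers (SD, n = 3), with no overlap. The 6 hepatocyte markers included none that changed (5 lower means and 1 higher, median log2 fold change −0.10), and no hepatocyte marker was at 0. All 6 Kupffer cell markers had higher means in Fmo5-/- livers (median log2 fold change 1.05), and their summed normalised count was 7356 to 8754 in WT and 11681 to 21603 in Fmo5-/- libraries. Clec4f was the 1 called (edgeR adjusted p of 0.0275), and it was not called without the first or the second library of either genotype (0.050 to 0.102). All 5 T and NK cell markers (summed 75.9 to 149 in WT, 195 to 872 in Fmo5-/-) and all 4 cycling cell markers (229 to 243 and 296 to 762) also had higher means, with none at 0. Each of these had an unadjusted edgeR p under 0.05, against 21.8% of all genes tested, and 4 of the 5 and all 4 did not overlap between genotypes, against 27.4%. Means were higher for all 5 B cell markers (1 with an unadjusted p under 0.05) and for both neutrophil markers tested (both under 0.05, without overlap). They went both ways among the plasma cell, erythroid, endothelial, stellate and cholangiocyte markers. No marker outside the Kupffer cell list had an edgeR adjusted p under 0.05. The T and NK, cycling, B, plasma, neutrophil and cholangiocyte markers all had means under 500, the minimum used below for a call. The part of these cells in the values below was not tested.

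The 86 genes together held 0.908% to 1.1% of the counts of a library. Their summed normalised counts were 484544, 472898 and 550793 in the WT livers and 442852, 494079 and 509715 in the Fmo5-/- livers. The third WT library was the highest and the first Fmo5-/- library the lowest, and the genotypes overlapped. A small number of genes took much of the total: Rpl4, Rps2, Rplp1, Rplp0 and Rps3 made up 17.0% of the counts of the members, and the 20 most counted made up 44.7%.

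Unless another length or scale is named, levels were compared between genes as normalised counts per kb of the principal transcript. On that scale the core genes had a median of 7340 and 70 of the 76 lay in the top 10% of all genes tested. A level of 2589 was exceeded by all but the lowest 10% of the core genes and a level of 15210 by the highest 10%, a ratio of 5.87. Rplp1, an acidic protein of the P stalk that is present in more than 1 copy per ribosome, had the highest level at 28342 per kb. It was followed by Rps15 (19237), Rps14 (19218), Rps2 (18333) and Rps21 (16911), all of the small subunit. This order depends on the length used: per 75-base window found in no other annotated transcript, Rps27, which has only 4 such windows, and Rpl10 came first and Rplp1 was at place 7, Rps15 at 23 and Rps21 at 32. The median per kb was 8312 for the small subunit and 6236 for the large subunit. The order of the core genes was nearly the same in every liver, with Spearman's rho over the 76 genes between 0.966 and 0.995 for the 15 pairs of libraries, a description only, since the points share gene length and counting.

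The 5 lowest levels were those of Rpl24 (42.2 per kb), Rps10 (128), Rpl13a (512), Rps15a (688) and Rpl35 (1594). Of these 5 low values, 4 went with exons that another annotated gene also covers, where reads are ambiguous and were not counted. In Rpl24, on chr16:55966275-55971435, 71.5% of the principal transcript lies under exons of Gm28037 on the same strand, and Gm28037 itself had 0 counts in all 6 libraries. In Rps10, on chr17:27630418-27636669, 63.6% is covered, mostly by the RPS10-NUDT3 model, which also had no count. Rpl13a is covered over 59.3% of its length, by Gm45713 and by small RNA genes, and Rpl35 over 68.3%, by Arpc5l and Wdr38 on the other strand. Rps15a is covered by no other gene, and its count is divided by a principal transcript annotated at 5130 bases. The 5 core genes covered over at least 50% of the transcript had a median of 512 per kb. They ranged from 42.2 for Rpl24 to 4431 for Rpl23a, which is covered over 55.4%. The 63 that are not covered had a median of 7637, from 688 to 28342. Over the 76 genes the covered share and the log2 level had a Pearson's r of −0.72 and a Spearman's rho of −0.37, given as a description. The low levels are those of the reads that could be counted, and the amount of Rpl24 or Rps10 mRNA cannot be read from them. The part of overlap and of annotated length in these levels was not tested.

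For genes covered from the other strand, counts kept by strand recover reads. Between 49.9% and 50.1% of the counts kept by strand fell on the first strand, so the libraries do not mark strand and the sum over strands also takes in reads of the gene on the other strand. The sum was 3.25 times the deposited unstranded count for Rpl30, which raised its level from 2883 to 9390 per kb. It was 1.73 times for Rpl23a and 1.67 times for Rpl35. For 72 of the 76 core genes it was less than 1.1 times, and for Rpl24 it was 1.00 times.

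**Figure D1:**
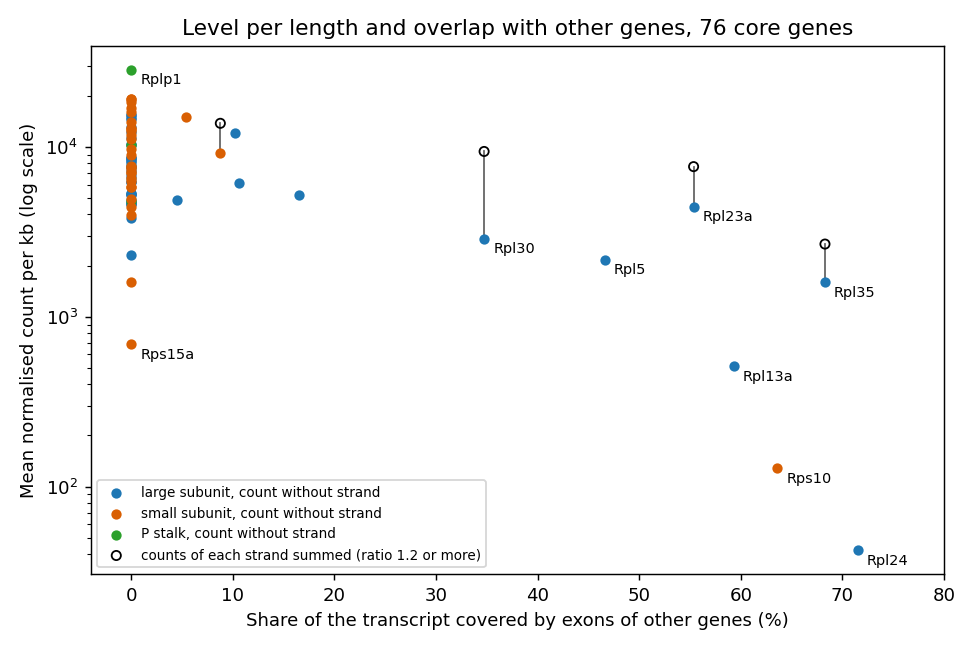
Mean normalised count per kb of principal transcript (log axis) of the 76 core genes against the share of the transcript that exons of other genes cover (%). Filled points are the unstranded counts, coloured by subunit, and open circles joined by a line are the counts summed over strands for the 4 genes in which these were at least 1.2 times as high. Rpl24, Rps10 and Rpl13a lie lowest, and Rpl30 rises most when strands are counted apart.

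None of the 81 tested genes was differentially expressed at the threshold used for all genes, an adjusted p under 0.05 in the edgeR quasi-likelihood test and a mean normalised count of at least 500. Of all 16734 genes tested, 0.753% passed (0.257% higher and 0.496% lower in Fmo5-/- livers), so a count of 0 among 81 lies close to the background and by itself does not set these genes apart. DESeq2 also called 0 of the 81, against 744 (2.18%) of 34199 genes, and gave 2 of them an unadjusted p under 0.05, against 10.1%. A call needs a mean of at least 500, which 78 of the 81 members had, but only 7819 of the 16734 genes. All 126 genes called by edgeR were among those 7819, so both shares of genes called understate the background for the members. For DESeq2 no share over genes with such a mean is given here, so its 0 is not read as close to the background. Before adjustment, 2 of the 81 had an edgeR p under 0.05, both lower in Fmo5-/- livers, against 21.8% of all genes tested (11.6% higher and 10.2% lower) and 25.2% of the 7819 genes with a mean of at least 500. The genotypes did not overlap for 4 members, all lower in Fmo5-/- livers, against 27.4% of all genes (13.5% lower and 13.9% higher) and 31.3% of genes with a mean of at least 500. The differences were small: log2 fold changes, Fmo5-/- over WT, ran from −0.27 to 0.24, and 54 of the 81 lay within 0.1 of 0. The median was −0.06, with 70 lower and 11 higher means, beside a median of −0.06 for genes with a mean of at least 500, of which 64% had lower means, as did 49.2% of all genes tested. Over all genes tested the median was 0.0058. The balance of lower and higher means was 72 and 9 with RLE factors, 70 and 11 with the members left out of TMM and 66 and 15 with the 20 most abundant genes left out of it. With genes under a mean of 500 removed before the scaling, the median of the members was 0.0029 with 37 lower and 41 higher means. The median of all genes kept was then 0.0017. Counting the reads of 1 strand gave 56 lower and 24 higher among 80 members tested, and removing a trend over transcript length gave 61 and 20.

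The precision of this comparison was high for most members. The median standard error of the log2 fold change was 0.10, and the median half-width of the 95% interval was 0.24. The interval lay within 0.5 of 0 for 75 of the 81 genes (92.6%), against 77.1% of genes with a mean of at least 500, and within 1 of 0 for all 81. A change of 1 or more on the log2 scale in either direction therefore lies outside the interval of every tested member.

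**Figure D2:**
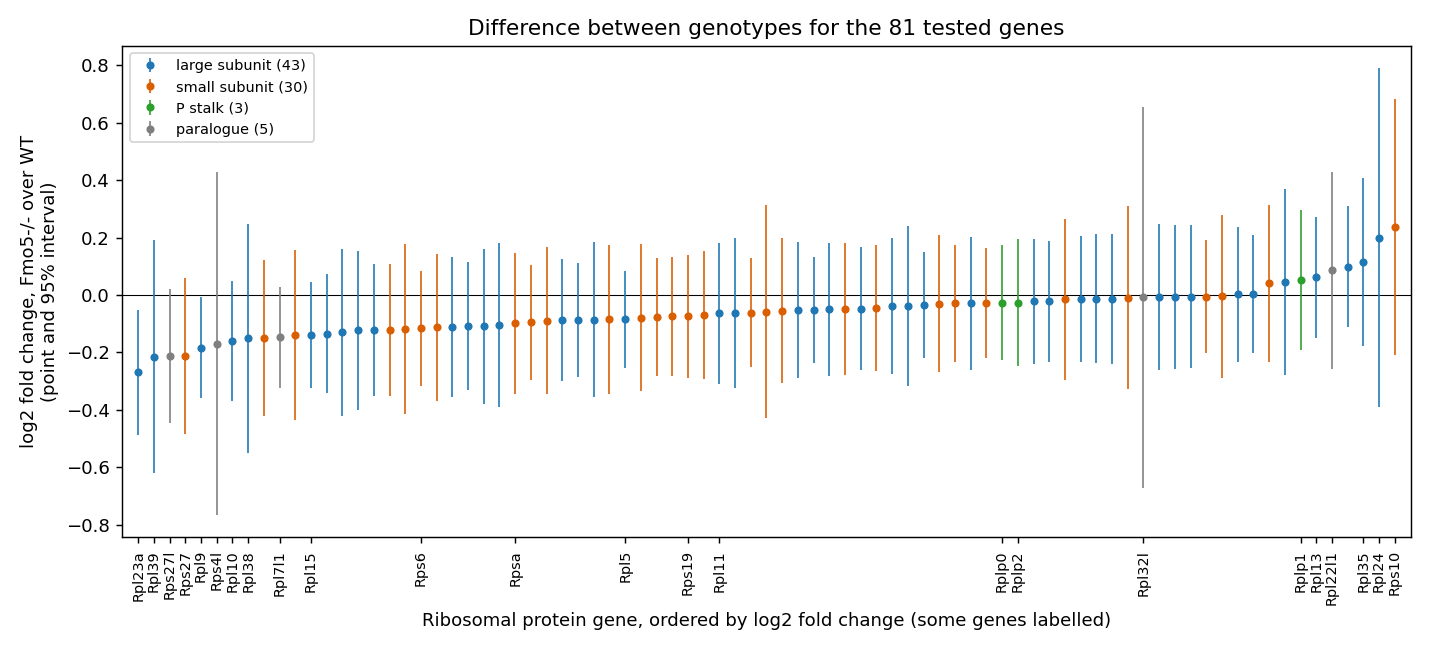
Log2 fold change, Fmo5-/- over WT, with its 95% interval from the edgeR fit (vertical axis) for the 81 tested genes in order of fold change (horizontal axis, some genes labelled), coloured by class. Most intervals cross 0, those of Rpl23a and Rpl9 lie below it, and the widest belong to Rpl32l, Rps4l and Rpl24.

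Rpl23a, whose protein lies at the exit of the nascent chain tunnel and binds the signal recognition particle, had the lowest fold change. Its normalised counts were 2585, 2554 and 2997 in WT livers and 2142, 2134 and 2476 in Fmo5-/- livers. Every Fmo5-/- liver was below every WT liver, and the Fmo5-/- mean was 83.0% of the WT mean. The log2 fold change was −0.27 (SE 0.10, interval −0.49 to −0.05), with an unadjusted p of 0.0208 and an adjusted p of 0.153 in edgeR. The gene, on chr11:78180932-78183584, is covered over 55.4% of its transcript by exons of other genes, mainly Tlcd1 on the other strand. Counted on 1 strand, its log2 fold change was −0.19 (edgeR adjusted p of 0.464).

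Rpl9, on chr5:65388364-65391444, encodes a protein near the base of the P stalk. Its normalised counts were 6668, 6702 and 7005 in WT livers and 5676, 6159 and 6104 in Fmo5-/- livers. The groups did not overlap, and the WT livers were the closest to each other of any core gene, with a coefficient of variation of 2.73%. The log2 fold change was −0.18 (SE 0.08), with an unadjusted p of 0.0427 and an adjusted p of 0.212 in edgeR. In Rpl9, 91.3% of the 75-base windows of the transcript also occur in other annotated transcripts, so that a read of this length from most of the transcript matches more than 1 annotated transcript.

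Rpl15, a large-subunit protein whose gene is among those mutated in Diamond-Blackfan anaemia, was also without overlap. Its counts were 3128, 3105 and 3410 in WT livers and 2739, 2916 and 3100 in Fmo5-/- livers, so that the lowest WT and the highest Fmo5-/- liver nearly met. Its log2 fold change was −0.14 (edgeR adjusted p of 0.361).

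At the other end of the order stood Rps10 and Rpl24, which had the highest fold changes and, as described above, the lowest levels per kb. Rps10, a protein of the small subunit near the mRNA entry, had normalised counts of 93.2, 90.4 and 129.9 in WT livers and 132, 110.1 and 128 in Fmo5-/- livers. Rpl24, which takes part in a bridge between the subunits, had 24.4, 26.8 and 28.6 in WT and 24.2, 30.3 and 37.3 in Fmo5-/- livers. The groups overlapped for both genes. The log2 fold change was 0.24 for Rps10 (interval −0.21 to 0.68) and 0.20 for Rpl24 (interval −0.39 to 0.79). With these 2 and the other core genes under 1000 per kb left out, the highest fold change among the 72 remaining core genes was 0.12, that of Rpl35. Rpl13, also in the upper part of the order, had a log2 fold change of 0.06 (edgeR adjusted p of 0.747).

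**Figure D3:**
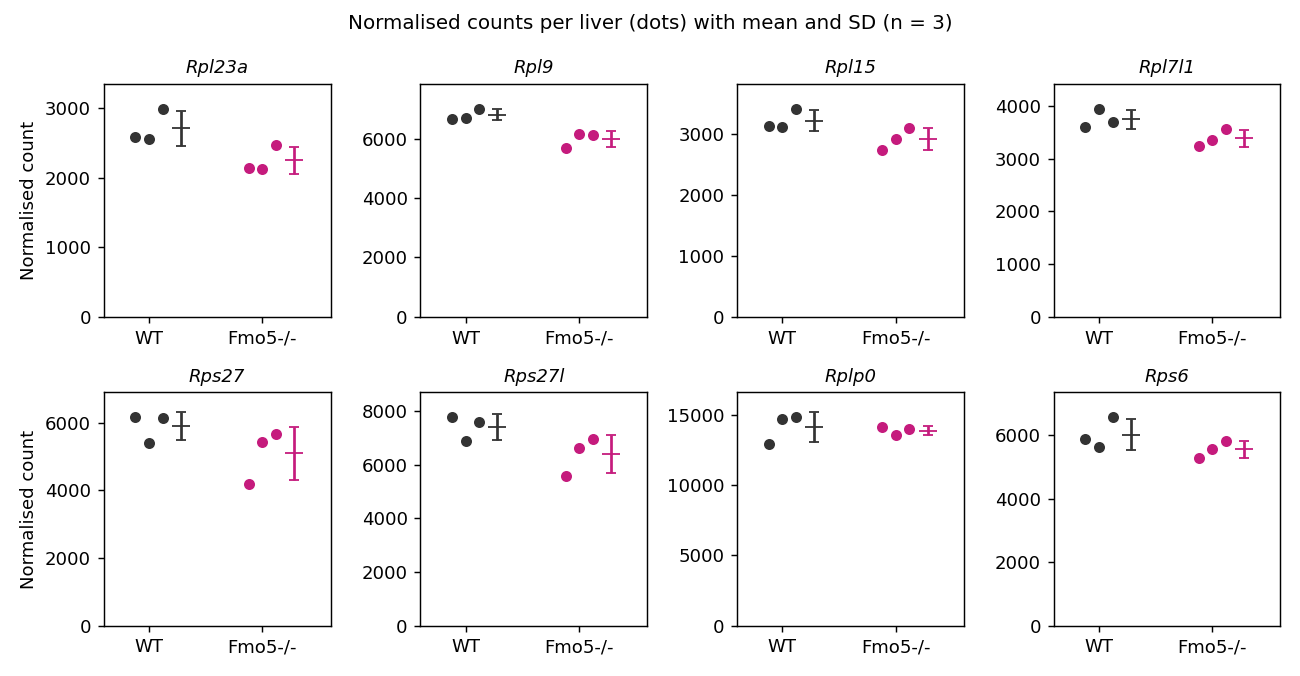
Normalised counts (vertical axes from 0) in each of the 3 WT and 3 Fmo5-/- livers for 8 members, with dots for livers and a bar with its whiskers for the mean and SD. Rpl23a, Rpl9, Rpl15 and Rpl7l1 show no overlap between genotypes, Rps27, Rps27l and Rps6 overlap with lower means in Fmo5-/- livers, and Rplp0 has close means.

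By their place in the ribosome the members gave the following values. In the large subunit 36 genes had lower and 7 higher means (median log2 fold change −0.05), and in the small subunit 28 had lower and 2 higher means (median −0.07). Over all members together such counts changed under some of the settings given above. The median of the log2 fold changes was −0.06 over the 76 core genes.

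The P stalk is built from Rplp0, its scaffold, and dimers of Rplp1 and Rplp2. Rplp0, often used as a reference gene in liver, had normalised counts of 12915, 14651 and 14799 in WT livers and 14082, 13543 and 13972 in Fmo5-/- livers, so that the Fmo5-/- livers lay inside the range of the WT livers. Rplp1 had 13235, 13288 and 15141 in WT and 12603, 15004 and 15586 in Fmo5-/- livers, and Rplp2 had 4522, 4395 and 5098 against 4099, 4743 and 4925. None of the 3 passed the test, and their log2 fold changes were −0.03, 0.05 and −0.03. Per kb, Rplp1 was 2.68 ± 0.18 times Rplp0 in WT and 2.83 ± 0.34 times in Fmo5-/- livers (SD, n = 3). Rplp2 was 0.467 ± 0.039 times Rplp0 in WT livers and 0.467 ± 0.049 times in Fmo5-/- livers. Per 1000 windows found in no other transcript the mean levels were 61490 for Rplp1, 15015 for Rplp0 and 6770 for Rplp2.

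RPL5 and RPL11 bind the smallest ribosomal RNA before it joins the large subunit, and when ribosome assembly fails the free complex binds MDM2 and stabilises p53. Rpl5 had normalised counts of 4500, 4468 and 4722 in WT and 4148, 4296 and 4470 in Fmo5-/- livers. Rpl11 had 6542, 5837 and 7046 in WT and 5408, 6515 and 6662 in Fmo5-/- livers. Both overlapped between genotypes, and the log2 fold changes were −0.08 and −0.06 (edgeR adjusted p of 0.559 and 0.783).

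The 8 genes whose proteins line the exit of the nascent chain tunnel had a median log2 fold change of −0.08, with 7 lower means and 1 higher. Besides Rpl23a they include Rpl39, a very small protein of the tunnel wall, which had counts of 1565, 1233 and 1730 in WT and 1017, 1323 and 1563 in Fmo5-/- livers. Its log2 fold change of −0.21 was the second lowest among core genes, but its interval ran from −0.62 to 0.19, since the livers of each genotype differed from each other. Rpl38, on which the translation of some developmental mRNAs depends, behaved similarly, with 3074, 2591 and 3754 in WT and 2226, 3032 and 3227 in Fmo5-/- livers (log2 fold change −0.15, interval −0.55 to 0.25). Rpl10, which completes the peptidyl transferase centre late in assembly, had a log2 fold change of −0.16 (SE 0.09, edgeR adjusted p of 0.352).

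Among the 15 genes mutated in Diamond-Blackfan anaemia, an inherited failure of red cell production, 14 had lower and 1 a higher mean (median log2 fold change −0.08, none called). Rps19, the most often mutated of them, had 4020, 3684 and 4046 in WT and 3286, 4018 and 3864 in Fmo5-/- livers, a log2 fold change of −0.07. The single higher mean was that of Rps10, with its low count. Rps6, the substrate of the S6 kinases, had 5882, 5626 and 6568 in WT and 5293, 5567 and 5818 in Fmo5-/- livers, a log2 fold change of −0.12 (edgeR adjusted p of 0.489). Rpsa, which also serves as a laminin receptor at the cell surface, had 9218, 10354 and 11470 in WT and 8814, 9622 and 10573 in Fmo5-/- livers, a log2 fold change of −0.10. Both overlapped between genotypes.

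Of the genes with the highest level per kb after Rplp1, Rps15, Rps14 and Rps2 had log2 fold changes of −0.05, −0.03 and −0.03, and Rps21 had one of −0.14, with overlap in each. Rps2, the most abundant of them by counts, had 17716, 18389 and 19305 in WT and 17925, 17530 and 18912 in Fmo5-/- livers. Of the low genes, Rpl13a, Rps15a and Rpl35 had log2 fold changes of −0.11, −0.15 and 0.12.

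Fmo5 lies on chromosome 3, as do 3 of the tested members, Rps27, Rpl34 and Rpl22l1. Their log2 fold changes ranged from −0.21 to 0.09 with a median of −0.05.

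Of the 10 paralogues, 5 had enough counts to be tested. Rps27l, a p53 target that can replace its relative in the small subunit, was the most abundant, at 13846 per kb beside 15937 per kb for Rps27. Rps27 (chr3:90212522-90213651, minus strand) and Rps27l (chr9:66946086-66949516, plus strand) have coding sequences of 255 bases in the GENCODE vM21 transcripts, of which 61 bases differ (76.1% identical). Both are shown because reads from the coding part of this pair can be told apart only by these differences, which are in capitals.
Rps27: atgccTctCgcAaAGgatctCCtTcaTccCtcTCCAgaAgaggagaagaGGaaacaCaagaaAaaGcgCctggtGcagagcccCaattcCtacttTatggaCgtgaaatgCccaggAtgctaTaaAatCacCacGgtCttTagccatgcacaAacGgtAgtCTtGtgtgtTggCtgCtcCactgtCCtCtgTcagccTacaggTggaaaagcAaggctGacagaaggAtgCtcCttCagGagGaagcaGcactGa
Rps27l: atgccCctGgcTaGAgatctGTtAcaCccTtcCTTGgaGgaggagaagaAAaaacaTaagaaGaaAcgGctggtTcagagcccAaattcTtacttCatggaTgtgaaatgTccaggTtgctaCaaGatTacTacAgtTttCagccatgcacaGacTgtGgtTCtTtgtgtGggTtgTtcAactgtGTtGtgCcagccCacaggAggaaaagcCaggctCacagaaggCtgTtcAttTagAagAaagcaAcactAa

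The counts of Rps27 were 6156, 5411 and 6132 in WT and 4196, 5440 and 5656 in Fmo5-/- livers, and those of Rps27l were 7771, 6874 and 7599 against 5594, 6641 and 6975. Both were lowest in the first Fmo5-/- liver, and both overlapped between genotypes. Their log2 fold changes were alike, −0.21 each (edgeR adjusted p of 0.348 and 0.273). Per kb, Rps27 was 1.15 ± 0.015 times Rps27l in WT and 1.15 ± 0.055 times in Fmo5-/- livers (SD, n = 3), while per kb of the longest coding transcript their mean levels were 12005 and 12016. The level of Rps27 is uncertain, since 98.5% of its 75-base windows also occur in transcripts of other genes, against 12% for Rps27l.

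Rpl7l1, a relative of Rpl7 that acts in the assembly of the large subunit, was the only paralogue without overlap. Its counts were 3593, 3950 and 3704 in WT and 3241, 3347 and 3566 in Fmo5-/- livers, a log2 fold change of −0.15 (SE 0.08, edgeR adjusted p of 0.316). Rpl22l1, the relative of Rpl22, had 610, 613 and 849 in WT and 638, 733 and 829 in Fmo5-/- livers, a log2 fold change of 0.09. The level of Rpl22 against Rpl22l1 depended on the length used, with means over all livers of 12200 and 1290 per kb of the principal transcript and of 2820 and 1290 per kb of the longest coding transcript. Rps4l, annotated as a transcribed pseudogene, had 592, 799 and 775 in WT and 856, 648 and 421 in Fmo5-/- livers. Rpl32l, a pseudogene, had between 23.4 and 49.1 in every liver.

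The other 5 paralogues were too low for a test. Rpl3l, known from heart and skeletal muscle, had 4 to 10 raw counts per library. Rpl10l, known from the testis, had 0 counts in 5 libraries and 1 count in the third Fmo5-/- library. Rpl39l, another testis gene, had 0, 1 and 1 raw counts in WT and 14, 2 and 1 in Fmo5-/- libraries, so 1 library held most of its counts. For these genes a count of 0 allows up to 3 counts, a limit that covers counting error only. The pseudogene Rpl6l had 3 to 10. Rps12l1 had 0 in every library, but all of its windows occur elsewhere and a gene on the other strand overlaps it, so no level can be read from that 0.

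The members moved together from liver to liver more than between genotypes. The third WT library was the highest of the 6 for 68 of the 76 core genes, and the first Fmo5-/- library was the lowest for 58. The deviation of a gene from its own mean over the libraries had medians, on the log2 scale, of −0.01, −0.07 and 0.17 in the WT livers and −0.17, 0.03 and 0.06 in the Fmo5-/- livers. All 76 core genes were above their own mean in the third WT library, and 3 were so in the first Fmo5-/- library. The SD of a gene over the 6 libraries had a median of 0.13 on the log2 scale, and of 0.07 once the median deviation of the core genes in each library was subtracted. Without the third WT library the median log2 fold change of the 81 genes was 0.01, with 50 higher means, and without the first Fmo5-/- library it was 0.01, with 42 higher means. The excess of lower means in Fmo5-/- livers was therefore present only with both of these libraries in the comparison.

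**Figure D4:**
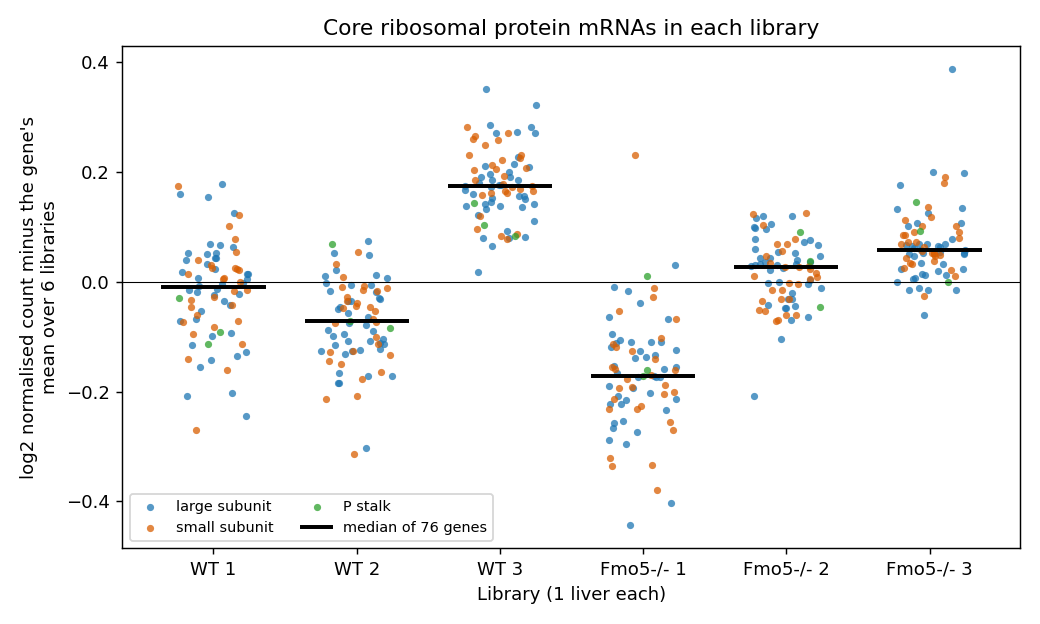
Log2 normalised count of each of the 76 core genes minus its own mean over the 6 libraries (vertical axis) in each library (horizontal axis), with points coloured by subunit and a bar for the median. The points of the third WT library all lie above 0, with a median of 0.17, and those of the first Fmo5-/- library mostly below it, with a median of −0.17.

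The size of these deviations went with transcript length in some libraries. In the first Fmo5-/- library the median deviation was −0.23 for the 24 core genes with transcripts under 600 bases and −0.14 for the 19 with transcripts of at least 1000 bases. Over the 76 genes, Spearman's rho between the deviation and the log2 length was 0.52 there, 0.37 in the second WT library and −0.38 in the first WT library, as a description over genes that share their libraries. The other 3 libraries lay between −0.22 and −0.18. The summed Kupffer cell markers were 21603 in the first Fmo5-/- library and 20657 in the second, whose median deviation was 0.03. The summed erythroid markers were 21145 in the first Fmo5-/- library and 9872 to 14747 in the others. The part of transcript length and of cell make-up in these shifts was not tested. The log2 fold changes themselves were only weakly related to length (rho 0.20).

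Replicates were otherwise close. The coefficient of variation of a core gene had a median of 9.72% among WT livers, from 2.73% for Rpl9 to 21.1% for Rps10, and a median of 8.99% among Fmo5-/- livers, from 0.838% for Rpl27 to 21.4% for Rpl24.

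Processed pseudogenes make ribosomal protein genes hard to count. Of the 76 core genes, 74 share at least 1 window of 75 bases with another annotated transcript, and 33 share at least 50% of their windows. These windows, together with those of the paralogues, are found in 676 pseudogenes, of which 143 passed the filter on low counts. All 143 had means under 500, so none could be called. Their median log2 fold change was 0.02, and 4 had an unadjusted edgeR p under 0.05, against 21.8% of all genes tested. The counts on these pseudogenes amounted to 1.51% to 1.66% of the counts on the members. The share of windows found elsewhere was not related to the level per kb (Pearson's r of −0.02 over 76 genes).

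Other genes of the translation machinery were read beside the members. Fau, which encodes a ribosomal protein fused to a ubiquitin-like protein, had a log2 fold change of 0.02. Of 19 tested genes for elongation factors and other TOP mRNAs, 17 had lower means (median log2 fold change −0.09), against 64% of genes with a mean of at least 500, and 2 had an unadjusted edgeR p under 0.05, against 21.8% of all genes. Nap1l1, a histone chaperone, was the 1 called, against 0.753% of all genes. Nap1l1 fell from 2484, 2552 and 2434 in WT to 1777, 1901 and 1888 in Fmo5-/- livers, a log2 fold change of −0.42 (SE 0.07, edgeR adjusted p of 0.0353). Without 1 library its adjusted p in edgeR was 0.0361 to 0.127, and it was called only without the third Fmo5-/- library. Of 35 genes of ribosome biogenesis, none was called, with 20 lower means and a median of −0.02, and 5 had an unadjusted p under 0.05, against 21.8% of all genes. The smallest p values in that list belonged to Pno1, an assembly factor of the small subunit (log2 fold change −0.32, edgeR adjusted p of 0.0739), to Tcof1, which promotes transcription of ribosomal RNA (0.35, 0.0923), and to Nhp2, a protein of box H/ACA particles (−0.23, 0.164). Pno1 was called by DESeq2 (adjusted p of 0.0332).

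Of 19 genes of RNA polymerase I and its factors, which transcribe ribosomal RNA, none was called (median log2 fold change 0.01), and 1 had an unadjusted p under 0.05. The smallest p values were those of Polr1d (−0.23), Cd3eap (0.29) and Taf1c (0.41), with edgeR adjusted p of 0.145, 0.238 and 0.253. None of 15 genes that control the translation of TOP mRNAs was called, and 3 had an unadjusted p under 0.05, a share close to the 21.8% of all genes tested. The 3 were Rheb, the activator of mTORC1 (−0.25), Eif4e, the cap-binding protein (−0.24), and Rps6kb1, an S6 kinase (−0.21), with edgeR adjusted p of 0.106, 0.167 and 0.211.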

How the data were processed

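RNA-seq was carried out on livers of 3 WT and 3 Fmo5-/- mice. The authors demultiplexed single reads of 75 bases with bcl2fastq 2.17.1.14, clipped adapters, aligned them with STAR 2.6.0c to the mm10 genome and deposited its raw counts per gene, unstranded and for each strand. Their deposited signal columns are these counts divided by 1 DESeq2 1.22.2 size factor per library (largest relative deviation 5.49e-06) and were used for that check only. Their fold changes and p values were not used. The annotation release that the authors used is not given in the sources used here. Positions, exons and transcripts were taken from GENCODE vM21 and start sequences from RefSeq, both on GRCm38.

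The unstranded counts were filtered with filterByExpr (minimum count 10), scaled by TMM and compared in R 4.3.3 by the edgeR 4.0.16 robust quasi-likelihood test with Benjamini-Hochberg adjustment over 16734 genes. A gene was called where its adjusted p was under 0.05 and its mean normalised count at least 500. Standard errors are the log2 fold change over the square root of F, and intervals are 95% confidence intervals. The p values measure the spread between the mice sampled. Levels per kb use the principal transcript (best APPRIS and support level, then the shortest). The scripts were tested on simulated data.

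The rule for the members uses symbols only, but this group of genes and the lists were chosen with earlier results of these data known. Named are the 6 highest and 6 lowest fold changes, the 4 smallest p in each direction, the 5 highest and 5 lowest levels, 10 genes chosen by role and every paralogue. From each other list the called genes are named, or else the 3 with the smallest p, and for cell type markers only counts, sums and calls are given. A few genes that the rule names are not reported here. Rpl15 was added for its lack of overlap, Rpl30 for its strand ratio, Rpl4 and Rps3 for their counts, Rpl27 for its small spread and Rpl34 for its chromosome, after their values were seen. Alternatives were the DESeq2 1.42.0 Wald test, RLE factors, TMM without the 20 most abundant genes or without the members, other filters, 1 strand, removal of a length trend and each library left out.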

Additional observations from a re-analysis of the deposited data

How the results depend on the processing

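The number of members called was 0 under every alternative run and without each library in turn. Of all genes, 126 were called, against 744 with the DESeq2 Wald test, 981 with no filter except 1 count, 53 with the mean of 500 set before the fit, 224 with the length trend removed and 14 to 259 with 1 library left out. Members with an unadjusted p under 0.05 numbered 2, against 1 with the 20 most abundant genes left out of TMM, 5 with no filter except 1 count (4 of them among the 81), 3 with the length trend removed, 0 with the mean of 500 set before the fit, 0 on 1 strand and 0 to 2 with 1 library left out. Members with higher means numbered 11, against 41 with the mean of 500 set before the fit, 24 on 1 strand, 20 with the length trend removed and 9 to 50 with 1 library left out. Cutting at 500 removes genes from the scaling, and with it the median log2 fold change was 0.0029 for the members and 0.0017 for all genes kept. The causes of the differences between settings were not tested.

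Fold changes close to 0 changed sign. With the mean of 500 set before the fit, the log2 fold changes were 0.036 for Rps2, 0.036 for Rps14, 0.011 for Rps15, 0.037 for Rplp0, 0.039 for Rplp2 and 0.0010 for Rpl11. For Rpl32l it was 0.43 on 1 strand and 0.027 with the length trend removed. With 1 library left out the ranges that crossed 0 included those of Rpl38 (−0.27 to 0.0034), Rplp1 (−0.011 to 0.14), Rps2 (−0.062 to 0.011), Rps14 (−0.066 to 0.031), Rps15 (−0.12 to 0.038), Rplp0 (−0.081 to 0.014), Rplp2 (−0.082 to 0.048), Rpl11 (−0.13 to 0.024), Rps19 (−0.13 to 0.0079), Rpl22l1 (−0.013 to 0.27), Rpl32l (−0.24 to 0.28), Rps4l (−0.43 to 0.057) and Fau (−0.035 to 0.12). Those of Rpl27 (−0.077 to 0.078), Rpl30 (−0.098 to 0.055) and Rpl34 (−0.12 to 0.032) also crossed 0. So did the ranges of many members that are not listed here. Rpl23a and Rpl9 stayed lower throughout, with edgeR or DESeq2 adjusted p values of 0.0792 to 0.464 and 0.169 to 0.409.

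The median level per kb of the core genes was 7340, against 3095 over all annotated exons, 6518 over the longest coding transcript and 7605 with strands summed. Per 1000 windows of 75 bases found in no other annotated transcript it was 16794 over the 74 genes with at least 50 such windows, and the ratio of the 90th to the 10th percentile was 10.7 in place of 5.87. These alternatives were chosen after seeing the data. Lengths mappable on the genome itself were not analysed here. No paired analysis was run, since each library is from a different mouse and the labels give no pairing. The intervals were widest for Rpl32l, Rps4l and Rpl24, and the part of depth in this was not tested. None of the 5 paralogues under the filter on low counts had a test with that filter in place.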
